A study of Mus musculus with 21 samples.

Results

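Malat1, Neat1, Miat, Rmst and Tug1 are long noncoding RNAs known from the nucleus or from neural tissue, and they were followed here through brain and lung of 3 lincRNA knockout strains of mice. These 5 genes were chosen by name among 42760 table rows for the Peril and Fendrr strains and 40770 for the linc-Brn1b strain. Each table named 4 of the 5: Malat1 had no row under its name in the linc-Brn1b table, and Tug1 had none in the other 2 tables.

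The wild-type and knockout groups were E18.5 brain of the Peril strain (labelled linc-Sox2), E14.5 lung of the Fendrr strain (labelled linc-Foxf1a), and, in the linc-Brn1b strain, telencephalon at E13.5, telencephalon at E15.5 and whole brain at P7. The labels give +/+ and knockout genotypes and 2 libraries per group, except 3 for the linc-Brn1b knockout at E15.5. In every knockout the lincRNA gene was replaced by a lacZ reporter with a LoxP-flanked neomycin resistance gene, in ES cells from a 129S6SvEv by C57BL/6N cross, and all strains were backcrossed once to C57BL/6J. The values are FPKM (fragments per kilobase of transcript, scaled to the number of mapped fragments), 1 pooled value per group as the authors' program gave it. No replicate spread, depth or interval is known for any of them, so no difference below was tested.

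Malat1 is an abundant RNA of nuclear speckles, the bodies that store splicing factors, and Neat1 is the scaffold on which paraspeckles assemble around the proteins SFPQ and NONO. The primary transcripts of Malat1 and of long Neat1 are cut by RNase P just before a tRNA-like fold. Their new 3′ ends carry no poly(A) tail and are protected by a triple helix, in which U-rich stretches clasp an A-rich one. Miat (also called Gomafu) is a neuronal nuclear RNA whose repeats bind the splicing factor SF1. Rmst is expressed in the neural tube and midbrain and works with SOX2 in neurogenesis. Tug1 is broadly expressed and was first described in the developing retina.

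The ends of Malat1 and long Neat1 are shown because both RNAs were measured here in mRNA-seq libraries of the TruSeq kit, which captures RNA by its poly(A) stretches. On mm9 (NCBIM37) Malat1 lies on the minus strand at chr19:5795690-5802671 as a noncoding gene of 6982 bp, and Neat1 on the same strand at chr19:5824708-5845478 over 20771 bp, with 22036 bp between them. The Malat1 window, chr19:5795918-5796089, runs from 90 bases before to 70 bases after the longest run of A in the gene, a run of 12 bases that ends 298 bases before the annotated end. The Neat1 window, chr19:5824648-5824827, holds the last 120 annotated bases and the 60 that follow. Capitals mark the 3 stretches of at least 10 bases that both windows share, of 13, 16 and 12 bases in the same order.
Malat1, sense strand: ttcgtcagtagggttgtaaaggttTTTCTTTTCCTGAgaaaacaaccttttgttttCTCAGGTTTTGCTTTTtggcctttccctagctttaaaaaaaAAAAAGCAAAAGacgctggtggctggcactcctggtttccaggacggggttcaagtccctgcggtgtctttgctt
Neat1, sense strand: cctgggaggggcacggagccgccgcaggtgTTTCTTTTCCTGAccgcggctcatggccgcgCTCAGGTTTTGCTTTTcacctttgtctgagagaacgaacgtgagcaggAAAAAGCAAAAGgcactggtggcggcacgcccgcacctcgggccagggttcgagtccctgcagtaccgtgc
The first 2 shared stretches are rich in U in the RNA and the third is the A-rich one. The 12 A of the Malat1 run stand just before the shared GCAAAAG, whereas Neat1 has 5 A there.

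Miat lies on the minus strand at chr5:112642248-112657968 and has 7 exons. The letters TACTAAC, which match the branch point sequence that SF1 recognises, are shown because they mark Miat among the 5 genes. All 6 copies on the sense strand lie in the last exon, of 7008 bp, in 2 groups of 3 at chr5:112646324-112646485 and chr5:112645767-112645837. Capitals mark the copies.
Miat, first group: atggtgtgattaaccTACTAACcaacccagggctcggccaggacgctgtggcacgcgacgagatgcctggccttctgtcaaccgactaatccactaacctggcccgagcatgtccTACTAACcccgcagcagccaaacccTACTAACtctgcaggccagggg
Miat, second group: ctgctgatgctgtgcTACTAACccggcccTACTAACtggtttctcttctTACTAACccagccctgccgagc
Spliced Miat had 0.685 copies per kb on the sense strand and 0 on the other strand. Neat1 had 1 copy in its 20771 bases, and Malat1, Rmst and Tug1 had 0. Among the longest transcripts of the noncoding genes other than Miat, 0.428% of 32272 windows of 162 bases held a copy, and 0 held 3. For windows of 71 bases the share was 0.171% of 76120, and again 0 held 3. Both lengths are those of the Miat groups shown, which hold 3 copies by construction. The other genes were cut end to end from their first base, which can split a group of copies, so the shares are not a like comparison. A match of letters is a description and not a site of binding.

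Tug1 lies on the minus strand at chr11:3539797-3548815, and 681 bp separate its start from that of Morc2a, a chromatin-associated ATPase gene on the plus strand. Its promoter is shown because the 2 genes start back to back and their levels parted with age, as given below. The sequence is that of RefSeq (GRCm38.p6), 300 bases across the start, and it matched mm9 exactly at chr11:3548768-3549067. Capitals mark CG.
Tug1 promoter: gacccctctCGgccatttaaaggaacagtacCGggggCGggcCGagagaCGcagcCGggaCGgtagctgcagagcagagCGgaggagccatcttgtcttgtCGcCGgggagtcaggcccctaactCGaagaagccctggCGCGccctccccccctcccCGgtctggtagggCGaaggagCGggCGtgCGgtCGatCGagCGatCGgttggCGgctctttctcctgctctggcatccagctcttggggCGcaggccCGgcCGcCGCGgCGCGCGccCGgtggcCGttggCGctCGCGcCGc
It held 37 CG, and 5.58% of 32851 RefSeq promoters of this length held as many or more. Miat had 25 (18.4% of promoters held as many) and Malat1 10 (43.5%).

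Rows over the targeted lincRNAs serve as a check of the labels. The linc-Brn1b row was at 1.60, 2.498 and 0.799 FPKM in wild type at E13.5, E15.5 and P7 and listed at 0 in all 3 knockout groups. The row over Fendrr was at 0.352 FPKM in wild type and 0.01001 in knockout. The row over Peril was at 0.0109 FPKM in wild type and 4.65 in knockout, opposite to a loss, so it does not check the labels. Whether that row reaches beyond the deleted part was not tested. The direction of the Peril differences below therefore rests on the column names, read in the order found for linc-Brn1b. Summed Y-linked genes differed between genotypes in every comparison, with 0.0256 and 26.4 FPKM in wild type and knockout of the Peril strain, 33.6 and 0 in Fendrr, and 49.2 and 0.0133, 0.00662 and 21.0, and 0.0357 and 23.2 in linc-Brn1b at the 3 ages. The sex of the pooled animals and the genotype therefore cannot be told apart in any comparison. In bulk tissue, fewer cells of a type and less RNA per cell cannot be told apart either.

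Miat and the Rmst locus had far higher values in brain than in lung, Neat1 higher values in lung, and the row read for the Tug1 locus nearly equal ones. Tissue markers followed the labels: 9 neuron markers summed to 2708 FPKM in wild-type E18.5 brain and 17.9 in lung, and Sftpc, the surfactant protein of lung epithelium, was at 0.0697 and 819 FPKM. Brain and lung are set side by side only, since they came from tables normalised separately and from embryos of different age and strain.

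Miat was at 70.2 FPKM in wild-type and 87.2 in knockout E18.5 brain of the Peril strain. In E14.5 lung of the Fendrr strain it was at 1.24 FPKM in wild type and 0.681 in knockout. It ranked 1073rd of 42760 rows in wild-type brain and 13447th in lung. All 8 brain groups of the series had Miat between 53.0 and 91.1 FPKM, so the 2 lung groups lay far below each of them.

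Rmst could not be read from its own row in the Peril table. That row was at 0.0155 FPKM in both genotypes, whereas linc-Tmpo-6, a row assembled by the authors over the same locus (chr10:91533826-91627964), was at 4.34 FPKM in wild type and 5.19 in knockout. In lung the Rmst row was at 0.0218 and 0.00630 FPKM and linc-Tmpo-6 at 0.0563 and 0.0817. Both rows were near 0 in lung, and in brain the reads of the locus stood in the linc-Tmpo-6 row. Mir135a-2 and Mir1251, microRNA genes of the locus, were listed at 0 in every group.

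Malat1 was at 28.8 and 28.9 FPKM in wild-type and knockout E18.5 brain, and at 50.6 and 41.0 in E14.5 lung. The values of the genotypes were almost equal in brain, and both lung groups lay above both E18.5 brain groups. Reads of the locus may also be listed in other rows, so this order holds for the row named Malat1 alone and is not given as one of brain and lung. In the linc-Brn1b strain Malat1 is not analysed here.

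Neat1 had its highest values in lung, 6.53 FPKM in wild type and 5.35 in knockout, against 1.61 and 1.87 in E18.5 brain. Every brain group of the series was below 3 FPKM. Neat1 was thus among the low-level rows in brain, 13162nd of 42760 in the wild-type Peril group.

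The Tug1 locus had nearly the same value in both tissues. Its row linc-Morc2a-AS was at 38.7 and 38.2 FPKM in wild-type and knockout brain and at 37.1 and 38.6 in lung, so that the values of the tissues overlapped. Where the table had a Tug1 row, in the linc-Brn1b strain, linc-Morc2a-AS was between 0.716 and 1.39 FPKM and Tug1 between 37.9 and 64.4. The tables do not give the strand of these rows, so their reads cannot be assigned with certainty to one gene.

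**Figure D1:**
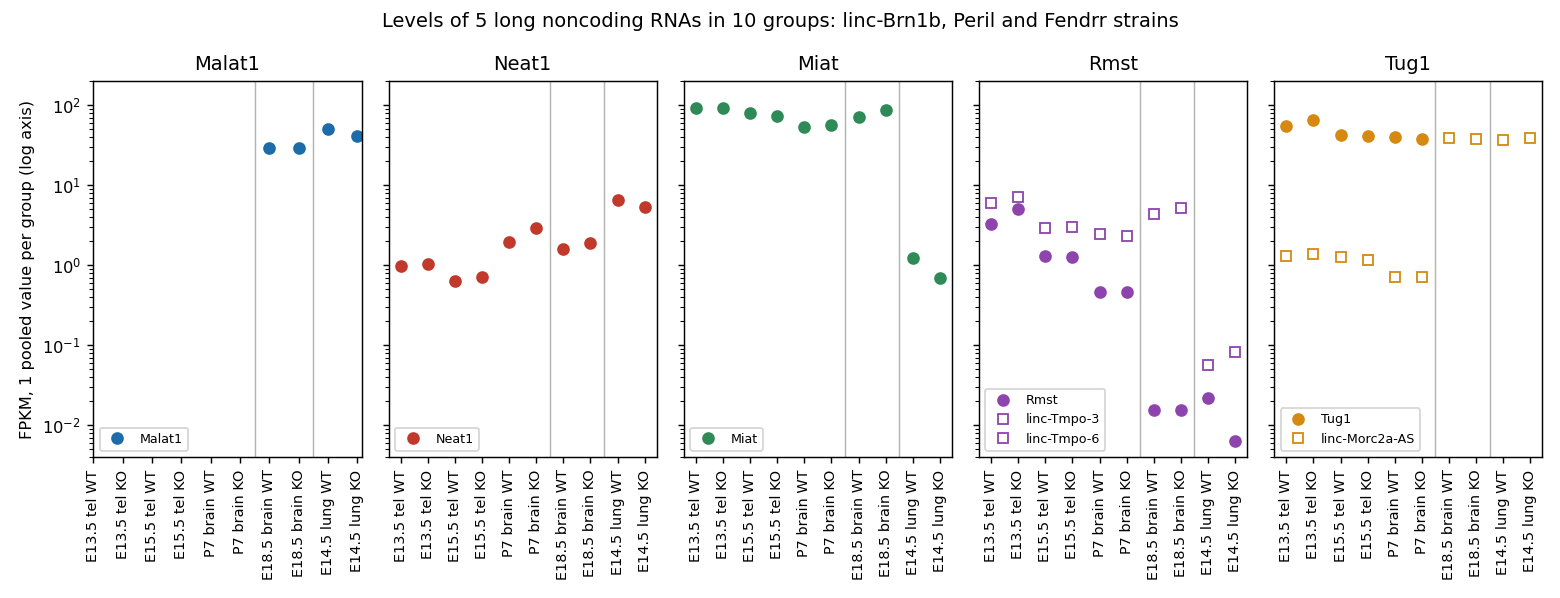
FPKM of each gene (filled circles) and of the other main rows of its locus (open squares) in the 10 groups, on a log axis, with 1 pooled value per group and vertical lines between the linc-Brn1b, Peril and Fendrr strains. Miat stands at 53.0 to 91.1 FPKM in every brain group and at 1.24 and 0.681 in lung, and the Rmst row is far below linc-Tmpo-6 in E18.5 brain.

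**Figure D2:**
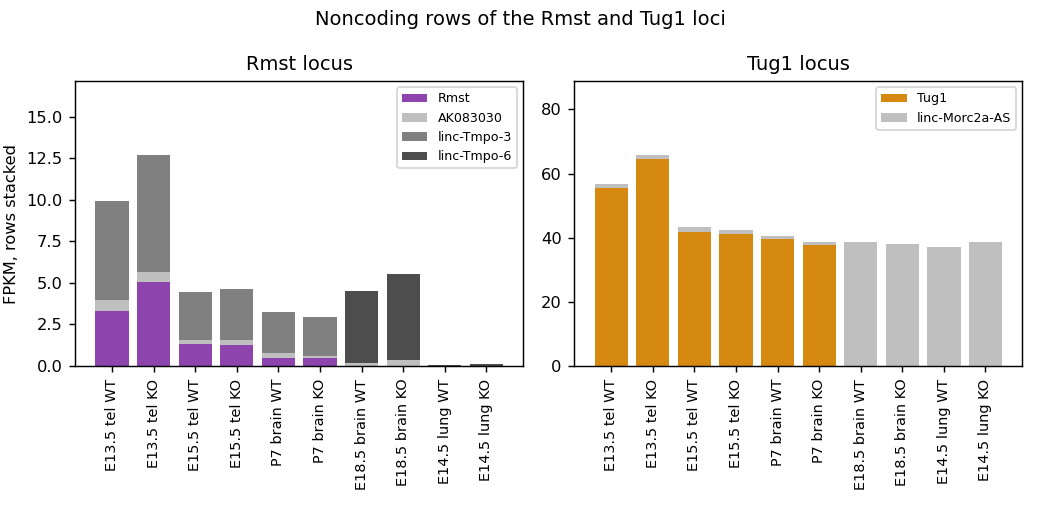
FPKM of the noncoding rows of the Rmst and Tug1 loci, stacked, in the 10 groups on linear axes from 0. The Tug1 row makes up most of its stack in the linc-Brn1b table and linc-Morc2a-AS all of it in the other tables, with stacks between 37.1 and 65.8 FPKM.

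The next question was whether loss of another lincRNA went with a change of these RNAs. Differences are of log2(FPKM + 0.1), knockout minus wild type, among rows with at least 1 FPKM in one of both groups, and a row was counted as different from 1.5-fold on. Of 16 such values for the 5 genes over 5 comparisons, 1 was higher (Rmst) and 1 was lower (Miat) in knockout.

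In Peril knockout E18.5 brain 0 of 3 genes differed, against 4.29% of 14729 rows. Miat was the most different, with 70.2 FPKM in wild type and 87.2 in knockout, a difference of 0.31. Neat1 differed by 0.21, and Malat1 by 0.01. The Rmst locus sum of 4.54 and 5.53 FPKM differed by 0.28.

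In Fendrr knockout E14.5 lung 1 of 3 genes differed, against 4.62% of 14265 rows. Miat was at 1.24 FPKM in wild type and 0.681 in knockout, a difference of -0.78. This is a difference between values near the minimum of 1 FPKM, and with a pseudocount of 1 it was -0.42 and no longer counted. Malat1 (difference -0.30) and Neat1 (-0.28) were lower in knockout without reaching 1.5-fold. Cardiac muscle markers differed in the same lungs, 9 of 9 higher in knockout with sums of 385 and 1166 FPKM. Neuron markers were low in both, with sums of 17.9 and 19.9 FPKM over 9 rows, of which 0 were at 0. The part of other tissue in the Miat difference was not tested.

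In linc-Brn1b knockout E13.5 telencephalon 1 of 4 genes differed, against 10.8% of 13822 rows. Rmst was at 3.30 FPKM in wild type and 5.04 in knockout, a difference of 0.59 (1.51-fold). The other main row of its locus, linc-Tmpo-3, was at 5.97 and 7.04 FPKM, and the sum of the noncoding rows differed by 0.35, under 1.5-fold. Centred on the median of all rows, the Rmst difference was 0.53 and no longer counted. Tug1 was at 55.4 and 64.4 FPKM (0.22), Neat1 at 0.981 and 1.04 (0.07), and Miat at 90.8 and 91.1 (0.01). Erythroid markers were lower in this knockout in 3 of 5 rows counted (sums 1306 and 611 FPKM) and microglia markers in 5 of 7 (26.2 and 15.3). Their part in these differences was not tested.

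In linc-Brn1b knockout E15.5 telencephalon 0 of 3 genes differed, against 0.959% of 13657 rows. Differences were -0.12 for Miat (78.7 and 72.6 FPKM), -0.04 for Rmst (1.30 and 1.25) and -0.03 for Tug1 (41.9 and 41.1). Choroid plexus markers were lower in 7 of 7 rows in this knockout, with sums of 255 and 8.81 FPKM, while the 3 genes stayed under 1.5-fold. The part of the choroid plexus in them was not tested.

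In linc-Brn1b knockout P7 brain 0 of 3 genes differed, against 8.36% of 14521 rows. Neat1 came closest, at 1.94 FPKM in wild type and 2.95 in knockout, a difference of 0.58 (1.49-fold). Another row of its locus, AK197973, was at 1.46 FPKM in wild type and listed at 0 in knockout and in the other 4 groups of this strain. With the noncoding rows summed, the Neat1 locus was at 3.75 FPKM in wild type and 3.07 in knockout, a difference of -0.28, so the direction depends on the row to which the reads were assigned. Miat was at 53.0 and 56.0 FPKM (0.08) and Tug1 at 39.7 and 37.9 (-0.07). Hindbrain and cerebellum markers were lower in this knockout in 6 of 8 rows (sums 102 and 45.4 FPKM), and oligodendrocyte lineage markers in 5 of 10 (672 and 451). Their part in these differences was not tested.

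**Figure D3:**
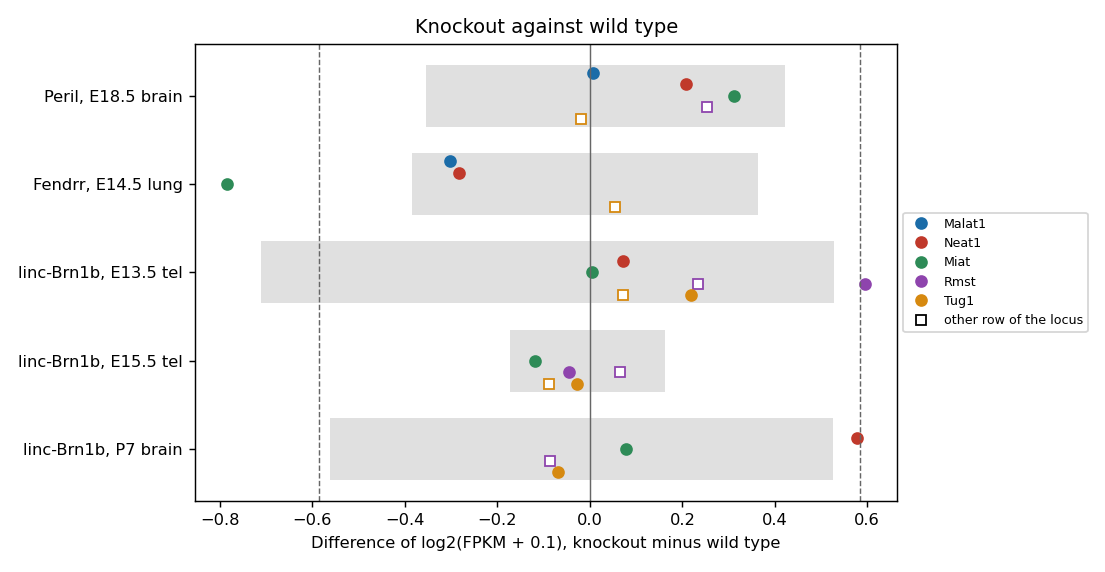
Difference of log2(FPKM + 0.1), knockout minus wild type, for the rows named after the 5 genes (circles) and other rows of their loci (squares) with at least 1 FPKM in one of both groups. Grey bars span the 5th to 95th percentile of all rows counted and dashed lines mark 1.5-fold. Miat in Fendrr lung (-0.78) and Rmst in E13.5 telencephalon (0.59) are the filled points beyond a dashed line.

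Between ages of the linc-Brn1b strain, 2 of 15 values of the genes were higher and 5 lower. In both genotypes Rmst, Miat and Tug1 were highest at E13.5 and lower at each later age, Tug1 only slightly so from E15.5 to P7. Neat1 was highest at P7. Wild type and knockout are separate groups at each age, although both comparisons between ages share the E15.5 groups. P7 samples were whole brain and the earlier ones telencephalon, so age and region cannot be told apart in the later comparison. In the earlier one the Y-linked sums given above turned in opposite directions in the genotypes, from 49.2 to 0.00662 FPKM in wild type and from 0.0133 to 21.0 in knockout, so age and sex cannot be told apart there.

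From E13.5 to E15.5, 1 of 3 genes differed in wild type, against 23.6% of 13973 rows, and 2 of 4 in knockout, against 24.4% of 13977. Rmst was at 3.30 FPKM at E13.5 and 1.30 at E15.5 in wild type (difference -1.28, 2.43-fold lower), and at 5.04 and 1.25 in knockout (-1.92, 3.79-fold lower). Its locus sum was lower too, with differences of -1.13 and -1.44. Tug1 differed by -0.40 in wild type (55.4 to 41.9 FPKM) and by -0.65 in knockout (64.4 to 41.1), past 1.5-fold in knockout. Miat differed by -0.20 and -0.33, and Neat1 by -0.55 (0.981 to 0.639 FPKM, under the minimum and not counted) and -0.50 (1.04 to 0.703). Rmst was thus the most different of the 4 genes at this step in both genotypes. Markers of other cells differed between the same groups. Erythroid markers were lower at E15.5 in 4 of 5 rows in wild type (sums 1306 and 221 FPKM) and in 3 of 5 in knockout (611 and 182). In knockout Hbb-b1, also of this list, was higher past 1.5-fold (34.8 and 65.7 FPKM). Choroid plexus markers were lower in 7 of 7 rows in knockout (sums 228 and 8.81 FPKM) and in 2 of 7 in wild type (181 and 255, with 1 higher). Neural progenitor markers were lower in 7 of 10 in wild type and 8 of 10 in knockout, and 4 of 9 and 3 of 9 neuron markers were higher. The part of these cells in the differences of Rmst and Tug1 was not tested. Differences between the genotypes in these courses were not tested.

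From E15.5 telencephalon to P7 brain, 2 of 4 genes differed in each genotype, against 58.0% of 14909 rows in wild type and 58.9% of 14853 in knockout, so these counts were near those of all rows. Neat1 was at 0.639 FPKM at E15.5 and 1.94 at P7 in wild type (difference 1.47, 2.77-fold higher), and at 0.703 and 2.95 in knockout (1.93, 3.80-fold higher). With the rows of its locus summed, the differences were 2.14 and 1.79. Rmst was at 1.30 and 0.457 FPKM in wild type (-1.33) and at 1.25 and 0.466 in knockout (-1.26). Its locus sum differed less, from 4.48 to 3.27 FPKM in wild type (-0.44) and from 4.62 to 2.93 in knockout (-0.64), with linc-Tmpo-3 still at 2.48 and 2.33 FPKM at P7. Miat was at 78.7 and 53.0 FPKM in wild type (-0.57) and 72.6 and 56.0 in knockout (-0.37). The markers of glia differed between the same wild-type groups, with 8 of 8 astrocyte markers higher at P7 (sums 143 and 1033 FPKM), 10 of 10 of the oligodendrocyte lineage (35.3 and 672) and 8 of 8 of microglia (25.01 and 81.4). Telencephalon markers were lower in 10 of 10 (503 and 118). Their part in the differences of Neat1, Rmst and Miat was not tested.

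Tug1 and its neighbour Morc2a parted between these ages. Tug1 differed by -0.08 in wild type (41.9 to 39.7 FPKM) and -0.12 in knockout (41.1 to 37.9), and by 0.03 in both with values rescaled to a common sum. Morc2a was at 30.4 and 13.4 FPKM in wild type (-1.18) and 29.98 and 12.4 in knockout (-1.27). Between E13.5 and E15.5 the wild-type difference of Morc2a was 0.05 (29.4 to 30.4 FPKM), beside -0.40 for Tug1. Osbp2, an oxysterol-binding protein gene and the next row beyond Morc2a, was at 4.99 FPKM at E15.5 and 15.4 at P7 in wild type, and at 5.39 and 21.2 in knockout. The 3 neighbours therefore had 3 different courses. Frmd8, the coding gene next to Neat1, was at 10.5 FPKM in wild-type E15.5 telencephalon and 4.69 at P7, opposite to Neat1.

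**Figure D4:**
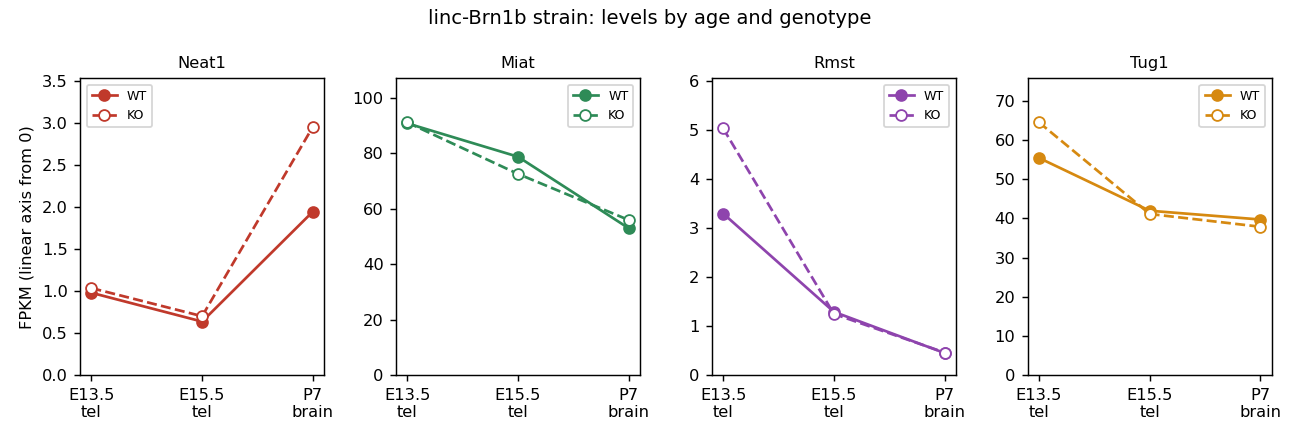
FPKM in telencephalon (E13.5, then E15.5) and in whole brain (P7) in wild type (filled, solid lines) and linc-Brn1b knockout (open, dashed lines), on linear axes from 0, with 1 pooled value per point. Lines join groups and do not follow animals. Wild type and knockout differ most at E13.5 for Rmst and Tug1 and at P7 for Neat1.

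Genes of proteins in the bodies that Malat1 and Neat1 occupy were followed as lists, by their mRNA values. No protein was measured. Of 20 paraspeckle proteins, 0 differed between genotypes in the Peril, Fendrr, E13.5 and E15.5 comparisons. The shares of all rows past 1.5-fold there were 4.29%, 4.62%, 10.8% and 0.959%, so a count of 0 says little about so short a list. In P7 knockout 2 were lower, against 8.36% of all rows past 1.5-fold in either direction. These were Rbm12 (17.3 FPKM in wild type, 10.96 in knockout) and Rbm7 (22.1 and 14.7), both RNA-binding proteins. From E15.5 to P7 in wild type 17 of 20 were lower and 0 higher, against 30.4% of all rows lower, with a median difference of -1.04 against -0.10 over all rows. From E13.5 to E15.5 it was 0 of 20 in both genotypes, against 23.6% of all rows past 1.5-fold in wild type and 24.4% in knockout. In wild type Nono, a core paraspeckle protein, was at 345 FPKM at E15.5 and 114 at P7, and its partner Sfpq at 193 and 74.2. The Neat1 row was higher at P7, so it and the mRNAs of these proteins differed in opposite directions. The libraries capture RNA by poly(A) stretches, so how far this low row follows long Neat1 is not known. In knockout 18 of 20 were lower from E15.5 to P7, against 30.5% of all rows (median -1.30, against -0.09 over all rows).

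Of 19 nuclear speckle proteins, 0 differed between genotypes in the Peril, Fendrr, E15.5 and P7 comparisons. The shares of all rows past 1.5-fold there were 4.29%, 4.62%, 0.959% and 8.36%. In E13.5 knockout 2 were higher, against 3.70% of all rows higher: the kinases of SR proteins Clk4 (33.3 and 50.6 FPKM) and Clk1 (53.6 and 80.7). From E15.5 to P7 18 of 19 were lower in wild type (median -0.84), against 30.4% of all rows, and 17 of 19 in knockout (-1.08), against 30.5%. Srsf5, a splicing factor, was the exception in wild type, at 178 and 197 FPKM. Of the 11 genes of RNase P and RNase Z, which process the Malat1 3′ end, 0 differed between genotypes in the same 4 comparisons, against the same shares. In E13.5 knockout Rpp21 (16.3 and 10.5 FPKM) and Pop5 (13.8 and 9.06) were lower, 2 of 11 against 7.10% of all rows lower. From E15.5 to P7, 2 of 11 were lower in wild type and 4 of 11 in knockout, near the 30.4% and 30.5% of all rows.

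**Figure D5:**
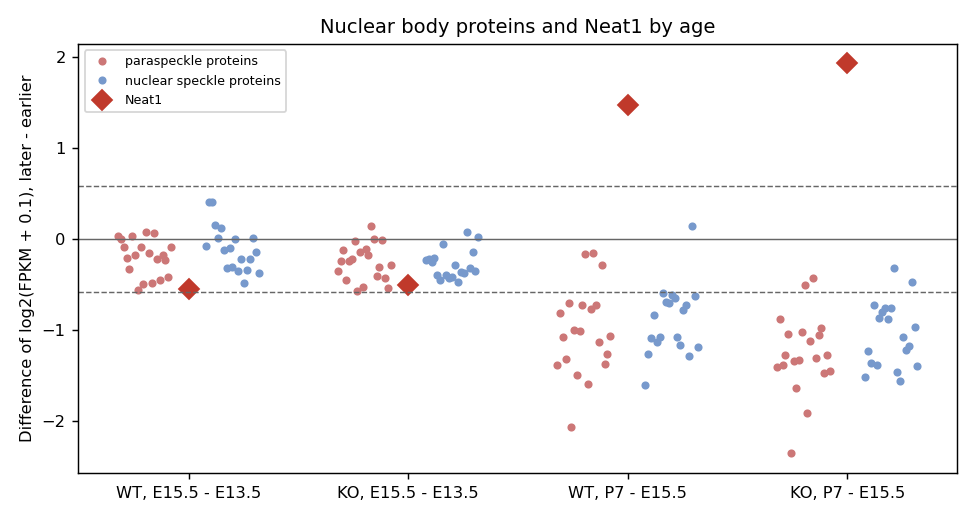
Difference of log2(FPKM + 0.1), later minus earlier age, for 20 paraspeckle and 19 nuclear speckle proteins (points) and Neat1 (diamonds) in wild type (WT) and knockout (KO); dashed lines mark 1.5-fold. At P7 nearly all points, the mRNAs of these proteins, lie below 0, and Neat1 at 1.47 and 1.93.

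RNA-binding partners of Miat and factors around Rmst formed a list of 13, of which 1 of 12 counted differed by genotype in P7 brain, against 8.36% of all rows. There Pax2, a midbrain and hindbrain transcription factor, was at 1.70 FPKM in wild type and 0.0295 in knockout. Pax2 is also one of the hindbrain markers that were lower there. In wild type 9 of 13 were lower at P7 than at E15.5 and 2 higher, against 30.4% and 27.6% of all rows. Sf1, the splicing factor that binds Miat repeats, was at 56.2 and 30.5 FPKM, and Celf3, a neural splicing regulator, at 93.3 and 52.7, next to Miat at 78.7 and 53.0. Qk, another RNA-binding protein, was at 60.6 and 79.6. Of the transcription factors set around Rmst, Sox2 was at 50.8 and 22.3 FPKM and Neurog2, a proneural factor, at 40.6 and 0.390. The row named Rmst was at 1.30 and 0.457 FPKM, and the sum of its locus differed less, with 4.48 and 3.27.

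Other known long noncoding RNAs formed a list of 40, of which 23 had rows in the Peril and Fendrr tables and 21 in the linc-Brn1b table. In the Peril comparison 2 of the 14 counted were higher and 2 lower in knockout, against 4.29% of all rows past 1.5-fold. Snhg1 was at 4.11 FPKM in wild type and 20.1 in knockout and Gas5 at 41.8 and 9.57, both hosts of small nucleolar RNAs. Airn, an imprinted antisense RNA, was at 0.586 and 1.93 FPKM, and Sox2ot, whose gene spans Sox2, at 2.53 and 1.52. The paper, which tested these brains, reports no significant change of Sox2ot. In Fendrr lung 1 of 13 differed, against 4.62% of all rows (Snhg3, 7.75 and 5.12 FPKM).

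In E13.5 knockout 1 of 15 was higher and 3 lower, against 10.8% of all rows past 1.5-fold. Meg3, an imprinted RNA, was at 116 and 175 FPKM, Gas5 at 105 and 16.3, Snhg6 at 42.8 and 20.7, and Rpph1, the RNA of RNase P, at 1.07 and 0.335. At E15.5 2 of 14 were higher in knockout, against 0.959% of all rows past 1.5-fold, 2610017I09Rik with 191 and 689 FPKM and Airn with 1.001 and 1.58. The paper reports a significant increase in this knockout of linc-Brn1a, a lincRNA whose promoter is that of Brn1, the coding gene near linc-Brn1b. Whether 2610017I09Rik is that lincRNA was not tested here, so its difference may be one at the targeted locus. At P7, against 8.36% of all rows past 1.5-fold, 1 of 14 was higher, 2610017I09Rik (79.7 and 453 FPKM), and 4 were lower, among them Gas5 (59.2 and 19.3), Snhg6 (55.5 and 31.4) and Rpph1 (1.36 and 0.301). Gas5 was thus lower in 3 of the 5 knockouts, while Miat had no difference past 1.5-fold in these 3. Reads of genes that host small RNAs, and those of overlapping or antisense pairs such as Airn and Sox2ot, may be shared with other rows, so their values are uncertain.

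With age these RNAs differed in both directions. From E15.5 to P7 in wild type 7 of 16 were higher and 7 lower, against 27.6% and 30.4% of all rows. In knockout 6 of 15 were higher and 8 lower, against 28.4% and 30.5%. Meg3 was at 214 and 457 FPKM in wild type and Rian, another RNA of the same imprinted cluster, at 156 and 412. Dlx6os1, an antisense RNA of forebrain interneuron genes, was at 7.84 and 0.170 FPKM. Miat, at 78.7 and 53.0 FPKM, lay between these courses.

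Genes whose course over the 6 linc-Brn1b groups was most like each of the 4 named ones were listed by the root mean square difference of their log2 profiles, each centred on its mean, among 13063 genes. Nearest to Neat1 were Hpgd (0.09), a prostaglandin-degrading enzyme, Mfsd4 (0.09) and Dcaf12l2 (0.12). Hpgd was at 0.940, 0.642 and 1.91 FPKM in wild type at E13.5, E15.5 and P7, beside 0.981, 0.639 and 1.94 for Neat1. Nearest to Miat were Pcnxl3 (0.04), Mrps2 (0.04), a mitochondrial ribosomal protein, and Mogs (0.04), a glucosidase of glycoprotein processing. Nearest to Tug1 were Rmi1 (0.04), a genome stability factor, Lman1 (0.04), a cargo receptor of the secretory pathway, and Eif4g1 (0.04), a translation initiation factor. Rmst had more distant neighbours, Grb10 (0.19), an imprinted adaptor of growth factor signalling, Palld (0.20), an actin-associated protein, and Ccdc8 (0.22). With only 6 groups from 1 table these are descriptions of likeness, and the names changed with the setting.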

How the data were processed

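RNA-seq of mouse tissue (500 ng total RNA, TruSeq mRNA-seq libraries, paired-end 101 bp reads) was aligned by the authors to mm9 with Tophat2, assembled with Cufflinks (2.0.2 per the submitters' processing notes) and quantified with Cuffdiff2 at default options. The authors deposited FPKM, 1 pooled value per group, in 3 tables normalised separately, with 0 columns of values per library. The 30 value columns for linc-Brn1b hold 6 distinct ones, of which 1 per group was read. The authors' own comparisons in the same tables (log2 fold changes, test statistics, p-values, q-values) were not used. Depth, replicate spread and intervals are therefore unknown, and no test was run.

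The main measure was the difference of log2(FPKM + 0.1), with a minimum of 1 FPKM in one of both groups and a threshold of 1.5-fold. Rows of a locus were those overlapping the GENCODE vM1 gene, and sums of noncoding rows, which add FPKM over different transcript lengths, were added after seeing that reads were split. Named are the 5 genes, the nearest genes on either side (up to 2, within 100 kb), the 3 most alike genes each, and list members past 1.5-fold by genotype, up to 4 per list and comparison with the largest differences. Other rows of the loci, list genes given by age, Frmd8, Morc2a and tissue markers were chosen after their values were seen. The genes and lists were chosen with earlier results of these data known. Some items of the lists and loci are not reported here. Calls were tested on simulated data, and so was the distance formula of the likeness, without its gene filters and pseudocount. Python 3.11.15, numpy 2.4.6, pandas 2.3.3 and matplotlib 3.10.9 were used.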

Additional observations from a re-analysis of the deposited data

How the results depend on the processing

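No paired analysis was possible because the tables hold 1 pooled value per group, and leaving out a library was not possible for the same reason. Of 144 differences of single genes recomputed with pseudocounts of 1 and 0.01, centring on the median or summed noncoding rows (chosen after seeing the data), 110 stayed within 0.1 on the log2 scale and on the same side of 1.5-fold, 34 did not, and 0 with a difference past 1.5-fold changed sign.

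Of the genes counted past 1.5-fold, the 1 in Fendrr lung (Miat) became 0 with a pseudocount of 1, a 2-fold threshold or a minimum of 5 FPKM. The 1 in E13.5 knockout (Rmst) became 0 with a pseudocount of 1, centring, a 2-fold threshold or summed rows, and the 0 at P7 became 1 (Neat1) with a pseudocount of 0.01. A minimum of 5 FPKM left 0 of 1 from E13.5 to E15.5 in wild type and 0 of 2 from E15.5 to P7 in each genotype, since Neat1 and Rmst are under it. The 2 in knockout from E13.5 to E15.5 became 1 at 2-fold. Rescaling each group to a common sum gave 12 in place of 9 over all 9 comparisons; it moved the median of all rows from 0.06 to 0.27 in E13.5 knockout against wild type, from -0.04 to -0.23 in knockout from E13.5 to E15.5, and from -0.10 to 0.06 and -0.09 to 0.10 from E15.5 to P7 in wild type and knockout. Of the 12 most alike genes, 2 were found again with a pseudocount of 1, and 0 of 9 over all 10 groups.

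The cause was not tested, except that a minimum or threshold removes rows by construction. Counts over all rows moved by more than 1.5 times in 29 of 54 recomputations. At 2-fold they were 223, 274, 438, 72 and 333 in place of 632, 659, 1494, 131 and 1214 for the 5 genotype comparisons in the order above. With a minimum of 5 FPKM they were 175, 189, 865, 45 and 501, with no minimum 2759, 2849, 2973, 783 and 2923, and with a pseudocount of 1 they were 291, 355, 77 and 665 for Peril, Fendrr, E15.5 and P7. For the age comparisons, at 2-fold 1186, 1167, 5369 and 5558 replaced 3297, 3413, 8642 and 8741, with no minimum they were 5419, 5503, 13409 and 13392, and with 5 FPKM 1888 and 2190 for the first 2.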
